A study of Mus musculus with 3 samples.

Results

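The genes described here encode the proteins of the cytosolic ribosome. They were chosen by symbol: every gene whose name starts with Rpl or Rps and a digit, together with Rpsa and Rplp0, Rplp1 and Rplp2. Rows with "-ps" in the name (7 pseudogene rows) and the Rps6k kinases (10 rows) were left out. This gave 86 of the 20368 genes in the table, 52 with large-subunit names and 34 with small-subunit names. Of the 86, 77 are the classical ribosomal proteins; the other 9 are the paralogues Rpl3l, Rpl7l1, Rpl10l, Rpl22l1, Rpl36al, Rpl39l, Rps27l and Rps27rt, and Rps19bp1, which encodes a nuclear protein that binds Rps19 and is not a part of the ribosome. Fau and Rack1, which also encode ribosomal proteins, fall outside the naming rule and were followed separately.

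The cells came from the prefrontal cortex of mice of both sexes on postnatal day 6, after 1 exposure to inhaled sevoflurane, a general anaesthetic, at about 3%. The labels give 3 single-cell libraries (10x Genomics), all in 1 group, with no unexposed mice, so every comparison is between cell classes of exposed cortex and an effect of the anaesthetic cannot be seen. The strain is not given, and nothing says whether the libraries came from separate animals, so p-values measure the spread between these libraries, which may be technical. The labels' protocol names flash freezing and Trizol but gives no dissociation step.

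A ribosome joins a small subunit, which reads the mRNA, to a large subunit, which forms the peptide bond. Their proteins are made in near-equal numbers, and their mRNAs typically begin with a run of pyrimidines, the 5′ terminal oligopyrimidine tract, through which the growth-sensing kinase mTOR adjusts their translation together. In the developing mouse brain, ribosome production is known to decline as early neural progenitors mature. Several ribosomal proteins have roles beyond the shared core, among them Rpl38, which is needed for the translation of Hox mRNAs in the mouse embryo.

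Start-site sequences from RefSeq (build GRCm38.p6, the same assembly as mm10) were found for 66 of the 86 members. Each line below gives 30 bases, from 10 before to 20 from the annotated start on, for the members that the comparisons turn on; capitals mark the longest run of at least 5 pyrimidines (C or T), where there is such a run.
Rpl13, chr8:123102340-123102369, plus strand: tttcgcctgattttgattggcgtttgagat
Rpl38, chr11:114668570-114668599, plus strand: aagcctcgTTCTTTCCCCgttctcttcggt
Rps7, chr12:28635934-28635963, minus strand: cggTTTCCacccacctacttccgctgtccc
Rps26, chr10:128626487-128626516, minus strand: gcaagccgccggaTCCTCTTTCgagtcttg
Rps16, chr7:28350679-28350708, plus strand: ttctgtcgtgacgtagcactcaatgcgcct
Rps12, chr10:23787190-23787219, minus strand: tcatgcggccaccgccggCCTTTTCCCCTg
Rps6, chr4:86857348-86857377, minus strand: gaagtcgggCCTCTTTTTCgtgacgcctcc
Rpl10, chrX:74270806-74270835, plus strand: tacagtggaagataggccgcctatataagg

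In Rpl38 and Rps6 the run of pyrimidines spanned the annotated start, and in Rps26 and Rps12 it lay a few bases further on. In Rps7 the run in capitals lay just before the start, and a further run of equal length, not in capitals, lay after it. The 30-base windows of Rpl13, Rps16 and Rpl10 held no such run. Over all matched members, a C followed by at least 4 pyrimidines was found in 44 of 66 windows (66.7%), against 39.6% of the windows of all 27025 genes in the same table. In the 250 bases before the start, on either strand, CCGGAA (the core of ETS-family sites) was found in 39.4% of members against 13.6% of all genes, ATGGCG (YY1 core) in 15.2% against 6.53%, and GGGCGG (GC box) in 51.5% against 35.4%. TATAAA (a core promoter element) was found in 6.06% of members against 14.3% of all genes, and GCATGCG (NRF1 core) in 1.52% against 3.43%. These are counts of letters near annotated starts and do not show binding.

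Cells were assigned to classes by pairs of marker genes, both above 0: P2ry12 and Csf1r for microglia, Dlx1 and Sp9 for interneuron-lineage neuroblasts, Cldn5 and Flt1 for endothelium, Kcnj8 and Vtn for pericytes, Pdgfra and Lhfpl3 for oligodendrocyte precursors (OPCs), Aqp4 and Gja1 for astrocytes, and Mag and Mobp for oligodendrocytes. Of 14192 cells, 11322 fell in 1 class, 2136 in none, and 734 in more than 1, which were dropped. That gave 1635 microglia, 1809 neuroblasts, 774 endothelial cells, 852 pericytes, 2768 OPCs, 3457 astrocytes and 27 oligodendrocytes. The oligodendrocytes had 8, 8 and 11 cells in libraries 1, 2 and 3, under the minimum of 20 a library, so they are described and not tested. Of 4 further markers per class, all 4 were highest in their own class, except that Cspg4 was not highest in OPCs. Libraries held between 4283 and 5134 cells and between 24612481 and 29581504 corrected counts, and 90 cell barcodes occurred in more than 1 library. The deposited values were already corrected for depth by the authors, with totals of 4422 to 8135 per cell, so each level below is a share of a cell's counts, given in CPM (each cell's counts scaled to the same total), and the amount of ribosomal mRNA per cell cannot be read from it.

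The family took very different shares of the transcriptome in the different classes. In microglia its 86 members made up 16.6%, 16.7% and 18.4% of corrected counts in libraries 1, 2 and 3 (17.3% ± 1.01, SD, n = 3). Neuroblasts followed at 12.5%, 12.5% and 14.2% (13.1% ± 0.973), and endothelium at 11.5%, 11.9% and 11.6% (11.7% ± 0.194). Pericytes reached 9.58%, 9.89% and 10.2% (9.89% ± 0.315), and OPCs 9.47%, 10.1% and 8.92% (9.49% ± 0.592). Astrocytes were lowest of the tested classes at 5.43%, 5.64% and 5.48% (5.51% ± 0.109). Every library of microglia lay above every library of the other classes, and every astrocyte library lay below them, the 27 oligodendrocytes apart. Neuroblasts and endothelium did not overlap, whereas pericytes and OPCs did: pericytes were higher in libraries 1 and 3 and lower in library 2. The 27 oligodendrocytes had 5.28%, 4.47% and 6.38%, across the astrocyte range.

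**Figure D1:**
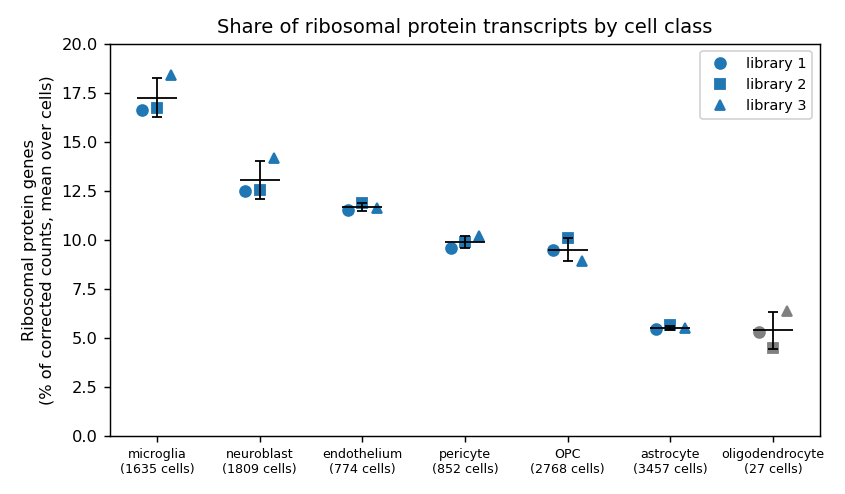
Share of corrected counts taken by the 86 ribosomal protein genes (y axis, percent, mean over the cells of a class) in each class (x axis). Circles, squares and triangles are libraries 1, 2 and 3, and the bar is their mean ± SD; grey marks the 27 oligodendrocytes, which were not tested. Microglia lie highest at 16.6% to 18.4% and astrocytes lie at 5.43% to 5.64%.

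The number of genes detected in a cell differed between the classes too, with a median of 1893 in microglia, 1866 in neuroblasts, 2847.5 in endothelium, 2464 in pericytes, 2652 in OPCs and 2763 in astrocytes. Among cells with 2000 to 3000 detected genes the shares were 15.6% in microglia, 11.2% in neuroblasts, 12.004% in endothelium, 9.89% in OPCs, 10.0% in pericytes and 5.28% in astrocytes. Microglia stayed highest and astrocytes lowest, while endothelium then stood above neuroblasts in the mean.

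The pattern ran through nearly the whole family. Of the 86 members, 83 averaged 10 CPM or more over the 6 class means and were tested; Rpl3l, Rpl10l and Rpl39l were too low. Of the 83, 73 had their highest class mean in microglia, and 81 had their lowest in astrocytes. For 79 of 83 members all 3 astrocyte libraries lay below every library of the other 5 classes, and this held for 5.66% of all 9768 genes tested. For 58 members all 3 microglia libraries lay above every other library, against 8.39% of all genes. The level in microglia was a median of 3.03 times that in astrocytes over the 83 members, and 66 of the 83 lay between 2 and 4 times. The extremes were Rpl10, a large-subunit protein near the tRNA-binding sites, at 5.01 times, and Rps19bp1 at 0.576 times.

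Each class was then set against the mean of the other 5 with limma, on log2(mean CPM + 10), with Benjamini-Hochberg adjustment over all 9768 genes; these 6 comparisons share libraries and classes and are not independent of each other. Any difference among the 6 classes was found for 83 of 83 members, but also for 98.9% of all genes tested, so that count alone says little about the family.

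In microglia, the brain's resident macrophages, 79 of 83 members were higher than in the other classes and 1 was lower, when 23% of all genes were called higher and 59.7% lower. The median log2 fold of the members was 0.85, and that of all genes was -0.33. Rps29, a zinc-binding protein of the small subunit, had 6246, 6352 and 7247 CPM in microglia, against 2678 to 2904 in neuroblasts, 2700 to 2864 in endothelium, 2484 to 2745 in pericytes, 1954 to 2246 in OPCs and 1343 to 1467 in astrocytes. No microglial library overlapped any other class, and the log2 fold was 1.54 ± 0.04 (SE, adjusted p = 4.16e-17). Rps12 had 1291, 1348 and 1425 CPM in microglia, and the highest library of any other class was 811 CPM, in endothelium; its log2 fold was 1.41 ± 0.05 (adjusted p = 5.37e-16). Rps19bp1 was the single member called lower, with 42.2, 44.9 and 46.3 CPM in microglia (log2 fold -0.37, adjusted p = 1.47e-05), a call lost when values were centred on the median gene (-0.09).

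In neuroblasts, precursors of interneurons, 72 of 83 members were higher and 2 were lower, against 34.1% and 47.2% of all genes. Of the 1809 cells of this class, 442 had both Mki67 and Top2a above 0, so it also holds dividing cells. The members' median log2 fold was 0.37, against -0.13 over all genes. Rps26, which lines the mRNA exit channel, had 1288, 1338 and 1486 CPM in neuroblasts, against 1176 to 1281 in microglia, 748 to 769 in endothelium, 670 to 721 in pericytes, 819 to 959 in OPCs and 422 to 455 in astrocytes. It was the single member whose 3 neuroblast libraries all lay above every other library, which held for 10.7% of all genes (log2 fold 0.85 ± 0.05, adjusted p = 2.61e-12). Rpl36al and Rplp1 were the pair called lower, at log2 folds of -0.36 and -0.13. The second of these had an adjusted p of 0.0151, without library 1 or library 2 it was no longer called, and centred on the median gene it turned to 0.054.

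In endothelium, the lining of blood vessels, 54 of 83 members were higher and 9 lower, against 30.1% and 50.8% of all genes, with a median log2 fold of 0.16 against -0.19 over all genes. Without library 1, 34 members were higher, and without the cells that had Mki67 or Top2a above 0, a check chosen after the data were seen, 31 were. Endothelial cells also had the most hemoglobin counts, 20297 ± 1684 CPM (SD, n = 3) against class means of 4494 to 8445 CPM in the other 5 classes. With hemoglobin genes taken out of the cell totals the family's share in endothelium was 11.9%, against 11.7% with them.

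In pericytes, the contractile cells around capillaries, 7 of 83 members were higher and 33 lower, against 33% and 36.4% of all genes, so the count lower was near the background and the count higher well under it. The median log2 fold was -0.06 against -0.02 over all genes. Without library 1, 3 members were higher and 21 lower, and without library 2, 4 were higher. Rps16 had 1885, 2096 and 1994 CPM in pericytes, higher than endothelium (1816 to 1916 CPM) in each library though the ranges overlap, and below the 2327 to 2582 CPM of microglia (log2 fold 0.50 ± 0.04, adjusted p = 1.46e-09). Rps21, a small-subunit protein, had 445, 451 and 456 CPM in pericytes, between the 371 to 401 CPM of astrocytes and the 478 to 539 CPM of OPCs (log2 fold -0.43 ± 0.04, adjusted p = 2.10e-08).

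In OPCs 64 of 83 members were lower and 4 were higher, against 24.2% and 52.9% of all genes. The median log2 fold was -0.24, against 0.22 over all genes. The 4 that were higher were Rpl13, Rps19bp1, Rpl7l1 and Rps27l, of which Rpl13 alone is a classical ribosomal protein. In cells with 2000 to 3000 detected genes 40 members were lower and 8 higher, without library 3, 8 were higher, and with the oligodendrocytes added 20 were lower.

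In astrocytes 81 of 83 members were lower and 1 was higher, against 36.4% and 37.5% of all genes, and the median log2 fold was -1.09 against 0.01 over all genes. Rps6, the small-subunit protein that S6 kinases phosphorylate, had 512, 523 and 500 CPM in astrocytes, against 1019 to 1147 in OPCs, the nearest class, and 2391 to 2706 in microglia (log2 fold -1.53 ± 0.05, adjusted p = 1.28e-16). Rpl10 had 533, 547 and 528 CPM in astrocytes, against 854 to 986 in OPCs and 2545 to 2948 in microglia (log2 fold -1.52 ± 0.05, adjusted p = 3.38e-16). Rps19bp1 was the single member called higher, at 72.6, 75.1 and 84.0 CPM, a range shared with the 73.5 to 81.3 CPM of OPCs (log2 fold 0.45, adjusted p = 1.62e-06). Rpl7l1 was the other member not called lower, at a log2 fold of -0.04. These counts were the same under every alternative tried, except that 80 were lower when the 27 oligodendrocytes were added to the fit.

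Since the median of all genes was itself off 0 in several comparisons, the counts were also taken with each class and library centred on its median gene. The members higher and lower were then 82 and 0 in microglia, 80 and 1 in neuroblasts, 60 and 6 in endothelium, 2 and 39 in pericytes, 1 and 79 in OPCs, and 1 and 81 in astrocytes. The member still higher in OPCs was Rpl13.

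**Figure D2:**
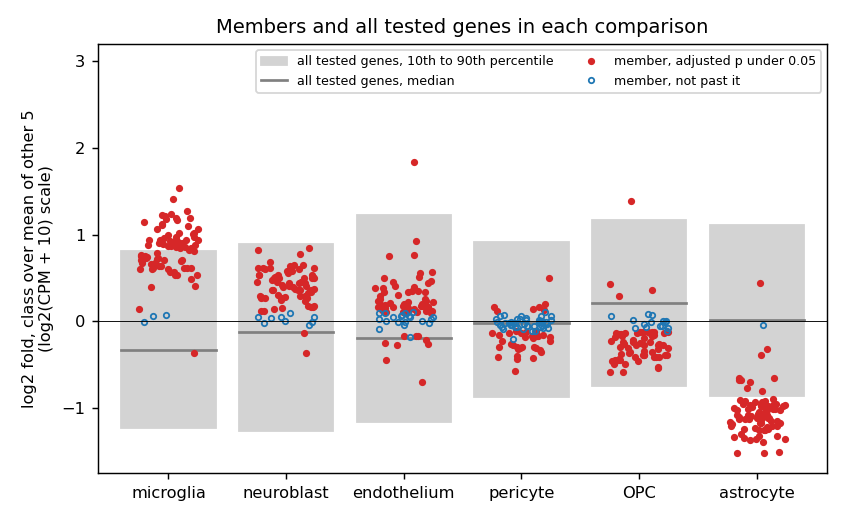
log2 fold of each of the 83 tested members in each class over the mean of the other 5 classes (y axis, log2(CPM + 10) scale). Red points passed an adjusted p of 0.05 and open blue points did not; the grey box runs from the 10th to the 90th percentile of all 9768 tested genes, with their median as a line. The members lie above the median gene in microglia, at a median of 0.85, and below it in astrocytes, at -1.09.

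By position in the ribosome, the groups given here had all their members higher in microglia and lower in astrocytes, while in endothelium they were mixed. Another planned group of 3, chosen for roles in selective translation and including Rpl38, differed in microglia. All 3 were lower in astrocytes, but 2 were higher in microglia, where Rpl38 was not called (log2 fold -0.004). The P stalk, the arm of the large subunit that recruits elongation factors, has Rplp0, Rplp1 and Rplp2: all 3 were higher in microglia and lower in astrocytes. Rplp0 had 3200, 3105 and 3479 CPM in microglia, 2386, 2293 and 2816 in neuroblasts, 2014, 2009 and 1966 in endothelium, and 897, 886 and 846 in astrocytes. Rplp1 differed from Rplp0 in neuroblasts, where it had 1122, 1110 and 1217 CPM, within the range of OPCs (1028 to 1245 CPM) and overlapping that of pericytes (1058 to 1185 CPM). Rpl5 and Rpl11, which bind the 5S ribosomal RNA and, when unassembled, the p53 regulator Mdm2, were both higher in microglia (log2 folds 0.73 and 0.79) and in neuroblasts (0.36 and 0.61). In endothelium they parted, with Rpl5 higher at 0.16 and Rpl11 lower at -0.18. The 7 proteins at the exit of the peptide tunnel (Rpl17, Rpl19, Rpl23a, Rpl26, Rpl31, Rpl35 and Rpl39) were all higher in microglia and neuroblasts and all lower in astrocytes and OPCs; in endothelium 3 were higher and 2 lower, and in pericytes 1 was higher and 1 lower. Rps2, Rps3 and Rps9, around the mRNA entry channel, were likewise all higher in microglia and neuroblasts and all lower in astrocytes and OPCs.

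The balance between the subunits also shifted by class. Large-subunit members took 56.0% ± 0.129 of the family's counts in microglia (SD, n = 3), 57.4% ± 0.137 in neuroblasts, 57.9% ± 0.181 in endothelium, 58.7% ± 0.128 in pericytes, 61.3% ± 0.275 in OPCs and 59.3% ± 0.136 in astrocytes. No library of OPCs or of microglia overlapped another class. Without Rpl13 the share in OPCs was 57.7% ± 0.175, in between the 57.5% of pericytes and the 58.0% of astrocytes. These shares are of 3′ tag counts and are not scaled to gene length.

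**Figure D3:**
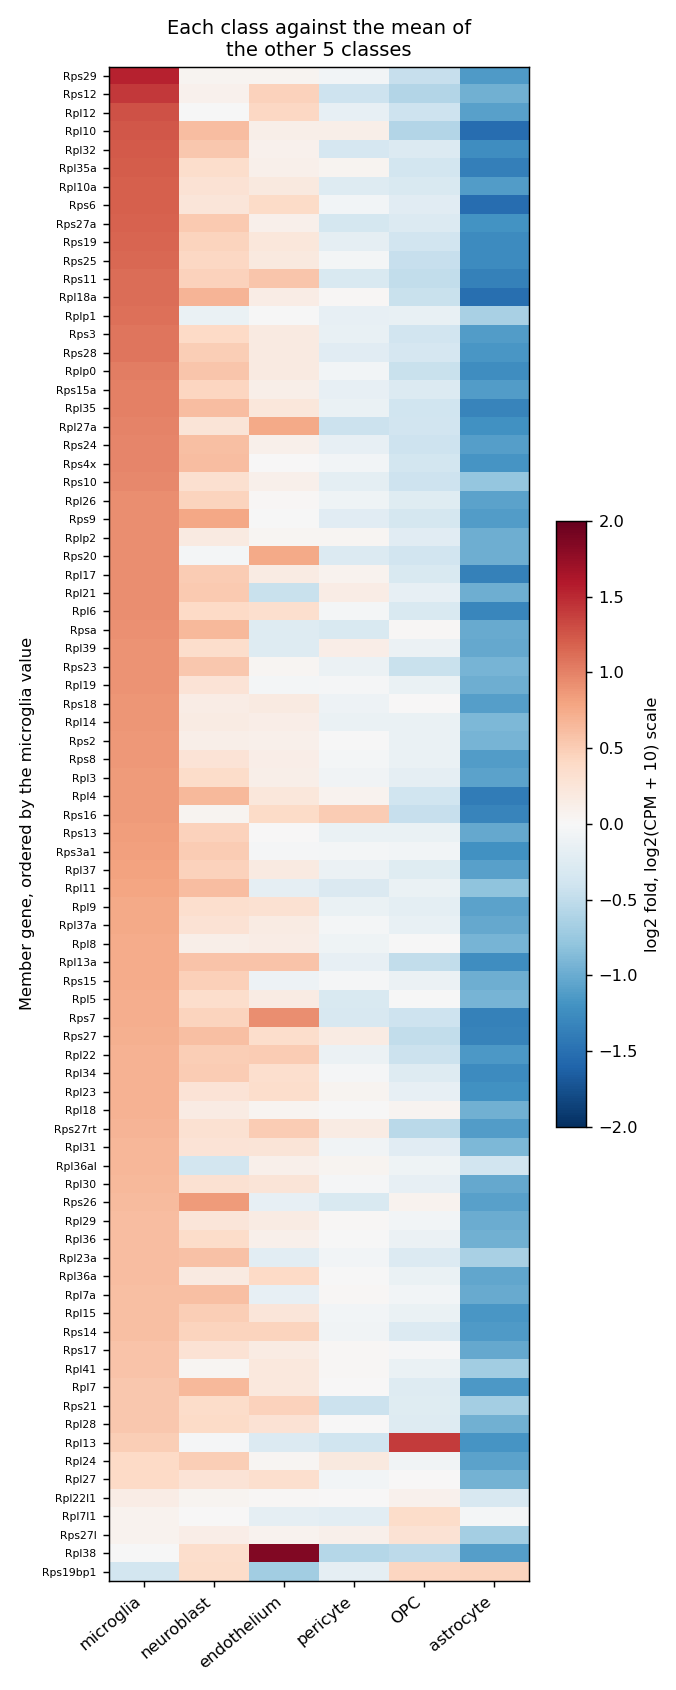
log2 fold of the tested members, all but 1 (rows, ordered by the microglia value), in each class over the mean of the other 5 (columns, log2(CPM + 10) scale, colour from -2 to 2). Microglia are mostly red and astrocytes mostly blue; Rpl13 in OPCs (1.39) and Rpl38 in endothelium (1.84) stand out from their columns, and Rps19bp1 runs the other way in microglia and astrocytes.

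To see which members departed from the family, the mean log2 value of the tested members was taken from every gene in each class and library, and the same test was run. The members called higher and lower by this measure were 38 and 32 in microglia, 36 and 29 in neuroblasts, 23 and 32 in endothelium, 29 and 22 in pericytes, 30 and 35 in OPCs, and 22 and 36 in astrocytes. The centring makes the members' log2 folds cancel out within each class, so a split into higher and lower was built in. All tested genes, which mostly do not follow this family, were called higher and lower in 8.18% and 87.1% in microglia, 17.8% and 64.6% in neuroblasts, 22.5% and 59.7% in endothelium, 38% and 28% in pericytes, 66.4% and 17.1% in OPCs, and 89.7% and 3.71% in astrocytes. Since the family mean was taken from all genes, these shares largely mirror the family's own shift and are no background for the members' counts. Without library 1, 18 members were called higher in OPCs and 14 in pericytes, and without library 2 the counts were 19 and 15. The members named below are among those with the highest and lowest of these log2 folds in each class.

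Rpl13, a large-subunit protein whose gene lies on chromosome 8 (123102350 to 123105244, plus strand), had the highest log2 fold against the family mean in OPCs. It had 8138, 8115 and 7529 CPM in OPCs, 4536, 4561 and 4981 in microglia, 3354, 3308 and 3896 in neuroblasts, 3003, 3045 and 2995 in endothelium, 2675, 2870 and 2871 in pericytes, and 1764, 1833 and 1770 in astrocytes. The OPC libraries lay above all others, which held for 13.7% of all genes; of the 83 members it held for Rpl13 and Rpl7l1. Against the family mean its log2 fold in OPCs was 1.60 ± 0.02 (adjusted p = 3.03e-24), and without centring it was 1.39 ± 0.04 (adjusted p = 4.80e-16). Rpl13 alone took 8.36% of the family's counts in OPCs, against 2.58% to 3.24% in the other 5 classes. Single OPCs had a median of 42 corrected counts of Rpl13, with the 10th percentile at 27, against medians of 10 in astrocytes to 24 in microglia, so the level was high in most OPCs and not in a few.

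Along the oligodendrocyte lineage the Rpl13 level was alike in 2 kinds of OPC and low in the 27 cells with Mag and Mobp. OPCs with Gpr17 and Neu4 both above 0, genes of precursors committed to differentiate, had 7893 ± 316 CPM of Rpl13 (SD, n = 3, 602 cells), and OPCs with both at 0 had 7923 ± 409 CPM (711 cells). The difference of these means was smaller than either SD, while the family's share was 8.74% ± 0.854 in the first and 10.8% ± 0.600 in the second. The 27 oligodendrocytes had 1341, 1058 and 1554 CPM, below every OPC library. Rpl13 overlaps Gm20388, Snord68 and Mir7079 on its own strand in the GENCODE annotation of this build, and none of these has a row in the table; whether reads from them were counted with Rpl13 was not tested.

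Rpl38, a small protein of the large subunit encoded on chromosome 11 (114668524 to 114672331, plus strand), had the highest log2 fold against the family mean in endothelium. It had 3854, 3913 and 3688 CPM there, against 1230 to 1385 in microglia, 1472 to 1850 in neuroblasts, 901 to 986 in pericytes, 902 to 1033 in OPCs and 665 to 706 in astrocytes. All endothelial libraries lay above every other, which held for 11.7% of all genes, and among members for Rpl38 and Rps7. Its log2 fold was 1.84 ± 0.06 (adjusted p = 9.13e-17), and 1.67 ± 0.04 against the family mean (adjusted p = 4.40e-22). It took 3.27% of the family's counts in endothelium, against 0.758% to 1.25% in the other 5 classes. The median endothelial cell had 26 corrected counts, and the medians of the other classes lay between 4 and 8. In microglia, the class with the most ribosomal counts, Rpl38 had the lowest log2 fold against the family mean of the classical members (-0.81 ± 0.04, adjusted p = 4.18e-16). The 5 classes it was set against there include endothelium. No other annotated gene overlaps Rpl38.

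Rps7, a small-subunit protein, was the second departure in endothelium, at 2335, 2407 and 2454 CPM against 2047 to 2287 in microglia and 1663 to 2086 in neuroblasts; pericytes, OPCs and astrocytes lay between 627 and 1187 CPM. Its log2 fold was 0.92 ± 0.05 (adjusted p = 3.69e-13), and 0.75 against the family mean. Rpl21 went the other way in endothelium, with 1106, 1128 and 1094 CPM, below the 1235 to 1377 CPM of OPCs, a class with a smaller family share (log2 fold -0.63 ± 0.03 against the family mean, adjusted p = 1.51e-15).

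In pericytes Rps16 had the highest log2 fold against the family mean (0.60 ± 0.03, adjusted p = 8.61e-15), followed by Rpl24 at 0.29. Rpl38 and Rps21 had the lowest there, at -0.48 and -0.34. In microglia the highest were Rps29 at 0.74 and Rps12 at 0.60. In neuroblasts Rps26 stood at 0.48, with Rpl36al at -0.73 and Rplp1 at -0.50. In OPCs the lowest were Rps12 and Rpl10, at -0.38 and -0.37. In astrocytes the highest were Rps19bp1 at 1.49 and Rpl7l1 at 1.00, and the lowest were Rps6 at -0.48 and Rpl10 at -0.47. By level the order in astrocytes was the reverse, with 77.2 CPM of Rps19bp1 and 78.0 of Rpl7l1 against 511 of Rps6 and 536 of Rpl10.

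**Figure D4:**
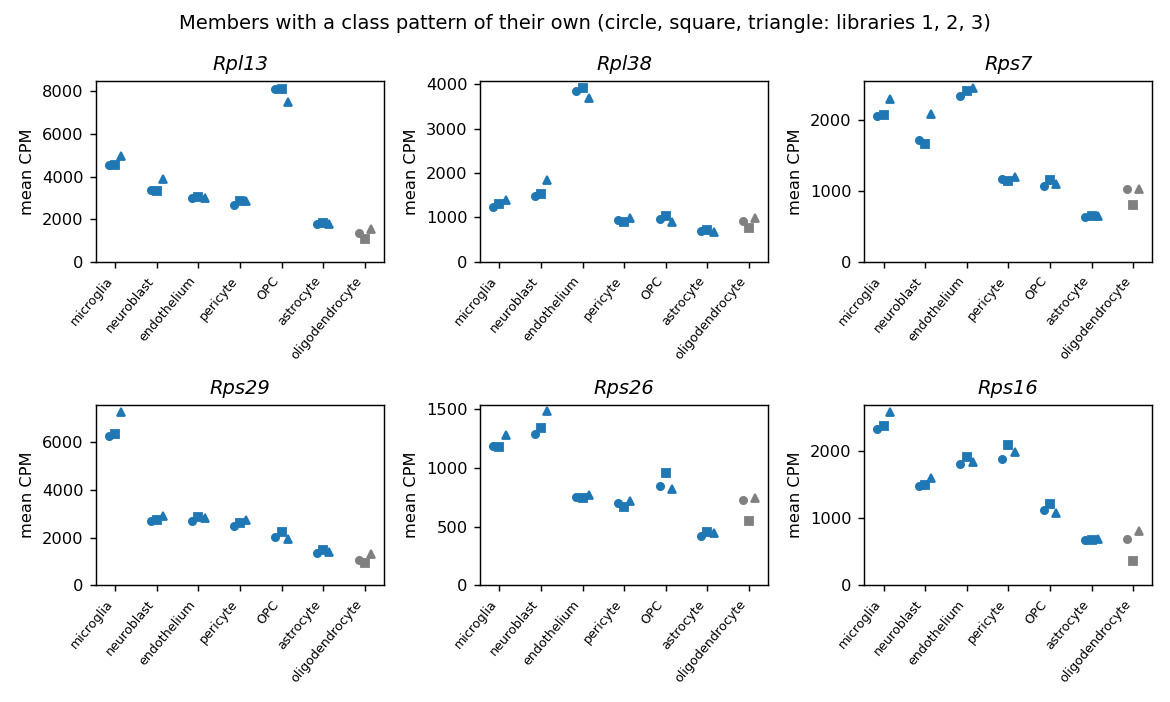
Mean CPM (y axes, from 0) of Rpl13, Rpl38, Rps7, Rps29, Rps26 and Rps16 in each class (x axes), with circles, squares and triangles for libraries 1, 2 and 3 and grey for the untested oligodendrocytes. Rpl13 peaks in OPCs at 7529 to 8138 CPM, Rpl38 in endothelium at 3688 to 3913 CPM and Rps29 in microglia at 6246 to 7247 CPM.

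In 3 of the pairs of paralogues the minor gene took its largest share of the 6 tested classes in astrocytes and OPCs. Rpl22l1, which can stand in for Rpl22 in the large subunit and in mice is kept down by it, had 643, 676 and 697 CPM in microglia, 628, 633 and 616 in endothelium, 663, 700 and 589 in OPCs and 535, 527 and 477 in astrocytes. Rpl22 had 716, 711 and 774 CPM in microglia, 647, 663 and 643 in endothelium, 373, 395 and 359 in OPCs and 249, 242 and 241 in astrocytes. Rpl22l1 was thus 67.7% ± 1.11 of the counts of the pair in astrocytes and 63.4% ± 1.04 in OPCs, against 57.7% ± 2.62 in pericytes, 49.5% ± 5.204 in neuroblasts, 49.0% ± 0.218 in endothelium and 47.8% ± 0.780 in microglia (SD, n = 3). Rpl22 was called in all 6 comparisons, with log2 folds from -1.16 in astrocytes to 0.70 in microglia. Rpl22l1 was called in astrocytes (-0.32) and microglia (0.14).

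Rps27l, a paralogue of Rps27 known as a p53 target, was 22.5% ± 0.736 of the counts of its pair in OPCs and 21.1% ± 0.611 in astrocytes, against 15.2% in pericytes, 13.6% in endothelium, 12.4% in neuroblasts and 11.4% in microglia. Rpl36al was 36.3% ± 1.14 of its pair with Rpl36a in astrocytes, against 21.97% ± 1.21 in neuroblasts and 24.7% to 28.8% in the other tested classes. Rpl7l1, known as a factor of ribosome assembly more than as a ribosomal protein, was 13.9% ± 0.555 of its pair with Rpl7 in astrocytes and 11.0% ± 0.415 in OPCs, against 5.59% to 6.88% in the other tested classes. The astrocyte and OPC libraries lay above all those of the other tested classes for Rpl22l1, Rps27l and Rpl7l1. The 27 oligodendrocytes, which were not tested, had shares of 65.1% ± 4.25 for Rpl22l1, 29.2% ± 5.70 for Rps27l, 46.2% ± 12.2 for Rpl36al and 4.65% ± 2.86 for Rpl7l1, so that Rps27l and Rpl36al were higher there in the mean than in any tested class.

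Paralogues known from testis (Rpl10l and Rpl39l) or striated muscle (Rpl3l) were at or near 0. Rpl10l was above 0 in 1 class and library, OPCs of library 2, at 0.187 CPM. Rpl3l did not exceed 0.519 CPM in any tested class and library. Rpl39l had 1.91, 3.48 and 4.42 CPM in microglia and 1.63, 1.96 and 0.772 CPM in endothelium, against 0 in all 3 pericyte libraries and at most 0.522 CPM in the rest of the tested classes. The longest open reading frames of Rps27 and Rps27rt are identical over all 255 bases, so the split of reads between this pair is uncertain. The same caution holds for members with pseudogenes, since the counting method is not given in the sources used here. The annotation has 294 pseudogenes with Rpl or Rps names that hold "-ps", and those under other names were not counted.

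Other genes of translation were followed as lists. Fau and Rack1, ribosomal genes outside the naming rule, were both higher in microglia, neuroblasts and endothelium and both lower in astrocytes and OPCs. In pericytes Rack1 was lower (log2 fold -0.22) and Fau was not called (-0.03). Of 16 other genes with a terminal pyrimidine tract, mostly translation factors, 11 were higher and 3 lower in microglia, 14 and 1 in neuroblasts, 9 and 4 in endothelium, 3 and 9 in pericytes, 4 and 6 in OPCs, and 1 and 15 in astrocytes. The shares of all genes called higher and lower in these 6 comparisons were 23% and 59.7% in microglia, 34.1% and 47.2% in neuroblasts, 30.1% and 50.8% in endothelium, 33% and 36.4% in pericytes, 52.9% and 24.2% in OPCs, and 37.5% and 36.4% in astrocytes, and the counts of each list below stand against the same shares. Hnrnpa1, an RNA-binding protein on this list, had log2 folds of 2.45 ± 0.04 in neuroblasts, 0.64 ± 0.04 in OPCs, -1.002 ± 0.04 in endothelium and -1.49 ± 0.04 in astrocytes.

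Genes that build ribosomes lay near the median gene in OPCs. Of 36 tested ribosome assembly genes, 22 were higher and 1 lower there, when 52.9% of all genes were higher, and their median log2 fold was 0.22, the same as the 0.22 of all genes. In the other classes 17 were higher and 13 lower in microglia, 14 and 10 in neuroblasts, 6 and 19 in endothelium, 7 and 19 in pericytes, and 4 and 19 in astrocytes. Their median was 0.15 in microglia against -0.33 over all genes, 0.06 in neuroblasts against -0.13, -0.18 in endothelium against -0.19, -0.19 in pericytes against -0.02, and -0.20 in astrocytes against 0.01. Rrs1, a nucleolar assembly factor of the large subunit, was highest of the list in OPCs (log2 fold 0.81 ± 0.09) and in astrocytes (0.98 ± 0.09). Ncl, which encodes nucleolin, was lowest of it in astrocytes at -0.94 ± 0.04. Of 12 tested genes that control ribosome synthesis, Mycn was higher in neuroblasts at a log2 fold of 3.01 ± 0.12, and Myc was higher in astrocytes at 0.94 ± 0.07. Eif4ebp1, which encodes a repressor of translation that mTOR inactivates, was higher in microglia (1.25 ± 0.11), endothelium (0.87 ± 0.11) and pericytes (0.79 ± 0.11) and lower in astrocytes, OPCs and neuroblasts (-0.99, -1.004 and -0.92).

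Mitochondria have ribosomes of their own, whose proteins are encoded by other nuclear genes. Of 77 tested mitochondrial ribosomal protein genes, 3 were higher and 61 lower in microglia, 24 and 27 in neuroblasts, 8 and 45 in endothelium, 34 and 4 in pericytes, 52 and 3 in OPCs, and 36 and 6 in astrocytes. Their median log2 fold was -0.34 in microglia, where that of all genes was -0.33, -0.01 in neuroblasts against -0.13, -0.21 in endothelium against -0.19, 0.14 in pericytes against -0.02, 0.29 in OPCs against 0.22, and 0.16 in astrocytes against 0.01. In microglia, endothelium and OPCs these medians were thus close to those of all genes.

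Each class was also split into dividing cells, with Mki67 and Top2a both above 0, and other cells. The family took a smaller share in dividing neuroblasts, at 9.05%, 9.41% and 9.65% against 13.99%, 14.05% and 14.8% in other neuroblasts. In dividing OPCs it was 7.69%, 8.16% and 6.98% against 9.71%, 10.4% and 9.20% in other OPCs. In dividing microglia it was 15.7%, 16.2% and 16.6% against 16.9%, 16.9% and 18.8%, and in dividing pericytes 8.90%, 8.94% and 9.07% against 9.68%, 10.0% and 10.3%. Astrocytes went the other way, with 6.29%, 6.61% and 6.15% in dividing cells against 5.41%, 5.601% and 5.46% in other cells. Endothelium did too, with 14.5%, 13.9% and 13.004% against 11.2%, 11.6% and 11.5%, but library 3 had 12 dividing endothelial cells, so this class was not tested.

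**Figure D5:**
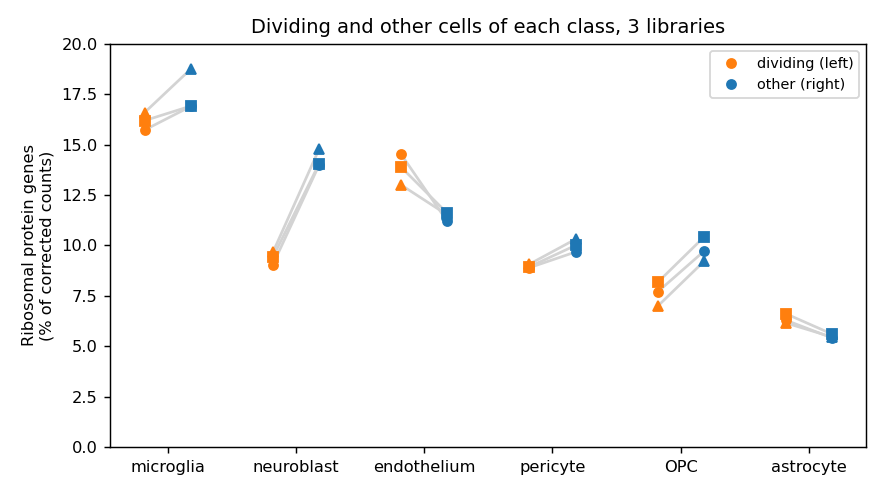
Share of corrected counts taken by ribosomal protein genes (y axis, percent) in dividing cells (orange, left) and other cells (blue, right) of each class (x axis); grey lines join the values of a library, and circles, squares and triangles are libraries 1, 2 and 3. Neuroblasts show the widest gap, 9.37% in dividing against 14.3% in other cells, and astrocytes and endothelium are higher in dividing cells.

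By gene, 9865 genes were tested in these splits. In neuroblasts 79 of 83 members were lower in dividing cells and 1 was higher, against 7.8% lower and 21.7% higher among all genes, with a median log2 fold of -0.55. Rpl37, a large-subunit protein, had 1132, 1230 and 1182 CPM in dividing neuroblasts, against 2261, 2247 and 2414 CPM in other neuroblasts (log2 fold -0.96 ± 0.07, adjusted p = 3.55e-12). Rps27l was the single member higher, with 460, 447 and 467 CPM in dividing neuroblasts, against 368, 414 and 338 CPM in other neuroblasts (log2 fold 0.29 ± 0.09, adjusted p = 0.0153); centred on the median gene it turned to -0.056 and was no longer called. Without library 1 or library 3 it was not called either. In OPCs 67 members were lower and 0 higher by limma's test, with 73 and 0 at an unadjusted p under 0.05, against 5.6% and 12.5% of all genes, with a median of -0.34. Rpl13 had 5469, 5854 and 5172 CPM in dividing OPCs, against 8498, 8480 and 7879 CPM in other OPCs (log2 fold -0.59 ± 0.06, adjusted p = 8.25e-10), and even the dividing OPCs lay above every library of the other classes.

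In pericytes 33 members were lower and 5 higher, against 13.6% and 18.1% of all genes (median -0.12), and in microglia 11 were lower and 0 higher by limma's test, with 29 and 1 at an unadjusted p under 0.05, against 3.31% and 10.1% (median -0.11). Without library 1 the count lower in microglia was 2 and the count higher in pericytes was 1, and without library 2 they were 5 and 3. In astrocytes 44 members were higher in dividing cells and 1 was lower, against 16% and 9.01% of all genes, with a median of 0.20. Without library 1, 25 were higher, and without library 2, 22. Rpsa, a small-subunit protein also known as a laminin receptor, had 738, 800 and 706 CPM in dividing astrocytes, against 460, 462 and 454 CPM in other astrocytes (log2 fold 0.69 ± 0.07, adjusted p = 6.46e-09). It was also higher in dividing pericytes, at 961, 900 and 817 CPM against 672, 677 and 714 CPM in other pericytes (0.37 ± 0.07, adjusted p = 0.000197), where centring on the median gene ended the call (0.17).

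A test of whether the dividing effect itself differed between the 5 tested classes called 80 of 83 members, against 15.4% of all genes. Rpl13 had the smallest p among members (adjusted p = 3.84e-09), and Rps21, Rps19bp1 and Rpl7l1 were the 3 not called. Dividing cells had more detected genes than other cells in each of the tested classes, with medians of 3345.5 against 2750 in astrocytes, 3490 against 2586 in OPCs, 2863.5 against 1734 in neuroblasts, 2374.5 against 1811 in microglia and 3212.5 against 2421 in pericytes. In endothelium the medians were 2846 and 2848. Among the cells of a class, the family's share fell as detected genes rose. In libraries 1, 2 and 3 Spearman's correlation was -0.77, -0.75 and -0.54 in neuroblasts and -0.50, -0.40 and -0.56 in OPCs. It was -0.47, -0.47 and -0.46 in microglia and -0.28, -0.15 and -0.34 in pericytes. In endothelium it was -0.27, -0.25 and -0.30, and in astrocytes -0.16, -0.13 and -0.19. The part of the difference in detected genes in the results was not tested. After centring on the median gene, 80, 78, 67 and 63 members were lower in dividing neuroblasts, OPCs, pericytes and microglia, and in astrocytes 5 were higher and 4 lower.

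Genes of ribosome assembly were also called in these splits. Of the 36 tested, 13 were higher in dividing pericytes, 9 in dividing astrocytes, 5 in dividing neuroblasts, 3 in dividing OPCs and 1 in dividing microglia. Of all genes 18.1% were higher in dividing pericytes, 16% in astrocytes, 21.7% in neuroblasts, 12.5% in OPCs and 10.1% in microglia, so the counts in pericytes and astrocytes were above the share of all genes and those in neuroblasts, OPCs and microglia under it. Their median log2 folds were 0.25 in pericytes, 0.24 in astrocytes, 0.25 in neuroblasts, 0.11 in OPCs and 0.07 in microglia, against 0.01, 0.03, 0.15, 0.06 and 0.05 over all genes of these 5 classes.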

How the data were processed

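Single-cell RNA sequencing of 3 libraries was used, with the members and gene lists chosen with earlier results of these data known. The values deposited by the authors are in natural log units: all 34958786 values above 0 became whole numbers within 1e-06 when the log was undone, and these are called corrected counts. The submitters' processing notes list build mm10 and the tools Cell Ranger, Seurat and CASAVA 1.8; how depth was corrected, and how multi-mapped reads were counted, is not given in the sources used here. The depth before correction is unknown, so no count model was fitted.

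Each cell was scaled to CPM, and the cells of a class were averaged within a library. The log2 of that average plus 10 CPM entered limma 3.58.1 (R 4.3.3), which fitted class with library as a block, a trend of variance with level and 10 residual degrees of freedom. The added 10 CPM draws folds of low genes toward 0. Genes averaging 10 CPM or more over the classes were tested, in either direction, and called where the p adjusted over all of them by the Benjamini-Hochberg method was under 0.05. A class entered with at least 20 cells in each library; oligodendrocytes missed this, so each class was set against 5 others where 6 had been planned, and the planned contrast of oligodendrocytes with OPCs was not made. Dividing cells were compared with other cells of their class in the same way over 5 classes, with 18 residual degrees of freedom. Library numbers were used as the block because all classes of a library share it. On simulated data for the astrocyte comparison with 9768 genes, 86% of genes changed by a log2 fold of 0.5 and 100% of those changed by 1 were recovered. Cells in 2 or more classes (5.17%) were dropped as possible doublets, and Scrublet in scanpy 1.11.5, which called 2.51%, 1.52% and 2.08% of cells, was an alternative. For the members named, the rule took the 2 highest and 2 lowest log2 folds past the threshold in each comparison with the same sign in every library, both genes of each paralogue pair, members too low to test and members of fixed structural groups; in each other list, the genes with the highest and lowest log2 fold. One member that this rule names, and 1 gene of another list, are not reported here. Rps4l, planned as a paralogue, and the members' proteins were not analysed here.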

Additional observations from a re-analysis of the deposited data

Results flagged for a closer look

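The difference in the family's share between dividing and other cells had opposite signs in different classes, in every library. It was higher in dividing cells by 0.862 percentage points in astrocytes and by 2.37 in endothelium, and the difference was -4.90 points in neuroblasts, -2.16 in OPCs, -1.35 in microglia and -1.03 in pericytes. For the summed share the difference between classes was not tested. Gene by gene, 80 of 83 members passed the test of that difference over 5 classes, endothelium left out. That test also calls a difference in size alone, so it does not show opposite signs. After centring on the median gene, 5 members were higher and 4 lower in dividing astrocytes.

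Some signal lay in rows and cells that no comparison used. Among the 7 pseudogene rows left out by the naming rule, Rpl10-ps3 had 17033 corrected counts and was above 0 in 59.8% of cells, with means of 416 CPM in microglia and 94.8 CPM in astrocytes. Rpl36a-ps1 had 3881 corrected counts, Rpl27-ps3 3315, Rps12-ps3 2522, Rpl9-ps6 1986, Rpl7a-ps5 1070 and Rpl13a-ps1 28. Whether these are transcripts of the pseudogenes or reads of the parent genes was not tested. In the 27 oligodendrocytes the family took 5.38% of corrected counts.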

How the results depend on the processing

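The spread was pooled over few libraries, and each level is a share of a cell's counts, so it also depends on the other transcripts of the class. Of 346 alternative values for the summed shares and the counts of members called, 293 stayed within 1 SD of the reported share or within 1.5 times the reported count; the other 53 are given here, the leave-one-out values as ranges. The causes were not tested. Of 528 alternative values for single members, 508 kept their direction and their side of the threshold, 18 kept their direction and were no longer called, and 2 reversed.

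Without the library as a replicate block, 0 members instead of 1 were lower in dividing astrocytes, and every other count stayed within 1.5 times. Without the filter on low values, 1 member instead of 0 was higher in dividing microglia.

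Log values centred on the median gene gave 1 member higher in OPCs, 1 lower in neuroblasts, 0 lower in microglia and 2 higher in pericytes. In dividing cells they gave 5 higher and 4 lower in astrocytes, 0 higher in neuroblasts, 63 lower in microglia, and 0 higher and 67 lower in pericytes. Rplp1 in neuroblasts reversed to a log2 fold of 0.054, and Rps27l in dividing neuroblasts to -0.056.

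Among cells with 2000 to 3000 detected genes, 8 members were higher and 40 lower in OPCs, 7 lower in neuroblasts, 5 lower in endothelium and 15 higher in pericytes; the shares were 5.28% in astrocytes, 11.2% in neuroblasts, 15.6% in microglia and 12.004% in endothelium. Without hemoglobin genes in the totals the share in endothelium was 11.9%.

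Chosen after seeing the data, leaving out cells with Mki67 or Top2a above 0 gave 1 member lower in neuroblasts, 31 higher in endothelium, and shares of 14.5% in neuroblasts and 11.3% in endothelium. Adding the oligodendrocytes, also chosen then, gave 20 members lower in OPCs, 1 lower in neuroblasts, 0 lower in microglia, 2 lower in endothelium, and 17 higher and 7 lower in pericytes.

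Leaving out each library in turn gave 4 to 8 members higher in OPCs, 1 to 3 lower in neuroblasts, 34 to 63 higher in endothelium, and 3 to 8 higher and 21 to 43 lower in pericytes. Against the family mean it gave 18 to 31 higher in OPCs and 14 to 29 higher in pericytes. In dividing cells it gave 22 to 47 higher and 0 to 1 lower in astrocytes, 0 to 1 higher in neuroblasts, 2 to 8 lower in microglia and 1 to 5 higher in pericytes. Oligodendrocytes against OPCs were compared under none of the settings.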
